A study of Mus musculus with 4 samples.

Results

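The genes described here are 7 early cytokine-response genes of T cells: Cish, Socs1, Socs2 and Socs3, which encode inhibitors of cytokine receptors, and Pim1, Pim2 and Pim3, which encode serine/threonine kinases. They were taken by name from the arrays, with every probe that carries 1 of the 7 names, and are 7 of 32877 genes with a value. These genes had 10 probes, of which 6 were well above the local background on the 4 arrays and 2 on none. Of the 7 genes, 6 had a single probe, so each of these rests on 1 probe, and Socs2 had the other 4 probes.

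RNA was measured on 4 single-colour Agilent mouse arrays, with 1 array for each of 4 groups, which were WT and Nr4a-TKO cells, each taken naive and after 3 h under iTreg conditions (iTreg at 3 h). Naive T cells were CD4+ cells with low CD25 and CD44 and no Foxp3, sorted from spleen and lymph nodes of bone marrow chimeras, and iTreg cells were the same cells after 3 h on plate-bound anti-CD3 with anti-CD28, IL-2, TGF-β1 and antibodies against IFN-γ and IL-4. Nr4a-TKO cells carry floxed alleles of Nr4a1 and Nr4a2 and a null allele of Nr4a3 on a C57BL/6J background, and the Cre driver is not given in the sources used here. The study's methods describe the floxed and Nr4a3-/- mice as young adults of both sexes, and cells were sorted some weeks after the marrow transfer. They were sorted from hosts of a mixture of both marrows, and WT cells from hosts given WT marrow alone, so genotype and type of chimera cannot be told apart. All hosts were irradiated Rag2-/- mice. The labels do not say how many mice were pooled for an array, and the dose of TGF-β1 is given as either of a pair of values.

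No group had a replicate. Differences are therefore values of these arrays, with no test and no p-value. The 4 arrays were on 1 slide and read in 1 scan, and no spot was saturated. Levels are log2 intensities after background correction and quantile normalization, and "higher" or "lower" refers to a difference of these levels. Probes printed on at least 5 spots put the SD of such a difference at 0.17, and at 0.25 where the level is under 6. This SD covers the spots of an array and leaves out the mice, the sort and the culture. A probe that was not well above background was, for a difference, raised to the lowest level of any probe that was (between 3.07 and 3.45 on the 4 arrays) where it read less, and the difference is then a bound. Where it read more, its own reading was kept. In RNA from bulk cells, fewer cells of a type and less RNA per cell cannot be told apart, which holds for every difference below.

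The genotype labels were read against the targeted genes first. Nr4a1 was at 7.05 on the naive WT array and at 8.39 on the naive array labelled Nr4a-TKO, and at 11.34 and 11.82 at 3 h. The pair of Nr4a2 probes was higher by 1.37 and 1.38 on the array labelled Nr4a-TKO iTreg at 3 h than on the WT array. Of the 3 Nr4a3 probes, 2 were lower there, by -1.86 and -1.47, and 1 was higher by 0.19. The first of these genes thus goes against the genotype labels, as does the second, and the third does for 1 of its probes. Whether any of these probes lies in a deleted part is not given in the files. The genotype names below are those of the labels throughout.

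The labelled cell type was read against its markers. The 6 genes read for naive CD4 T cells, Cd3e, Cd3d, Cd4, Ccr7, Lef1 and Tcf7, all passed the background on every array, and their summed linear level was 19409 and 19008 on the arrays labelled WT and Nr4a-TKO naive T and 11309 and 8835 at 3 h. Foxp3 was lower on the arrays labelled Nr4a-TKO, by -1.31 in naive cells and -1.36 at 3 h, although the sort took cells without Foxp3. The other Treg markers did not follow it at both stages: Ikzf2 was at -1.37 and 0.16, Ctla4 at 0.84 and 0.06, and Il2ra at -0.07 and 0.05. The 4 Treg markers summed to 1008, 874, 1073 and 999.5 in the order WT naive, Nr4a-TKO naive, WT at 3 h and Nr4a-TKO at 3 h. The 9 genes of B cells and MHC class II were all above background and summed to 3705, 4317, 2941 and 4127, so the sum was higher on both Nr4a-TKO arrays. Most of the sum came from the bright probe of Cd22, which was at -0.05 between genotypes in naive cells and 0.15 at 3 h. In the same order H2-Aa was at 1.61 and 1.34, H2-Ab1 at 0.93 and 1.38, Cd74 at 0.75 and 0.86 and Cd79b at -0.56 and 0.77. The 7 memory or effector genes summed to 5174, 5534, 2297 and 4220. On the Nr4a-TKO array at 3 h, Cd44 was higher by 1.56, Cxcr3 by 1.30, Ly6c2 by 0.99, Il2rb by 0.77 and Id2 by 0.45. Ccl5 was at 0.17 and S100a4 at -0.36 there. In naive cells S100a4 was at -2.17, Cxcr3 at -0.59, Id2 at 1.03, Il2rb at 0.57 and Cd44 at 0.23, with Ly6c2 and Ccl5 at -0.01. Among myeloid genes, Adgre1 was not well above background on any array and Lyz2 stayed between 3.79 and 4.27, while the list's sum of 34627 to 39792 came mostly from a pair of bright probes named Itgam and Csf1r. Cd14 was at 6.66 on WT naive T and 3.97 on Nr4a-TKO naive T, a difference of -2.70, and S100a9 (-0.60) and S100a8 (-0.66) were also lower on the Nr4a-TKO naive array. In the same comparison Fcer1g was at 0.15, Csf1r at 0.12, Itgam at 0.08 and Lyz2 at -0.02. Cd14, S100a9 and S100a8 were lower on the WT array at 3 h than on WT naive T. S100a9 differed by -1.36, S100a8 by at least -0.79, and Cd14 by -2.89 against a 3 h reading not well above background. The 2 CD8 genes summed to between 74.4 and 142, the erythroid genes to between 148 and 195 and the NK genes to between 44.4 and 57.8. The part of these markers in the differences of the 7 genes was not tested.

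Cytokines such as IL-2, IL-4, IL-6 and IL-7 bind receptors that carry Janus kinases (JAKs), which phosphorylate STAT transcription factors. STAT factors then switch on genes that include the receptors' own inhibitors. CIS, the product of Cish, and the SOCS proteins bind phosphorylated receptors or JAKs through an SH2 domain and recruit a ubiquitin ligase through their SOCS box, which closes a negative feedback loop. PIM kinases are active as soon as they are made, so their amount is set largely by transcription and turnover, and they favour survival, growth and translation.

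The sequence upstream of the start sites is shown for the members that differed most between naive and cultured cells and held a searched motif. Of the 7 genes, 6 had a window of 250 bases before to 50 bases after the start in RefSeq (GRCm38.p6), and Socs2 had no entry. Each window was searched on both strands for TTCNNNGAA, the palindromic element that STAT factors bind, for AGGAAG, a form of the Ets element, and for AAGGTCA, the half-site of Nr4a factors. These matched 8.3%, 35.4% and 4.72% of 32851 windows of the same length. A STAT match was found in Cish and Socs3, an Ets match in Pim2 and Pim3, and an Nr4a match in Pim3, where it overlaps the Ets match. Neither Socs1 nor either of the start sites of Pim1 held a match. Cish held 2 STAT matches, at positions 1 and 12 counted from the start, and more than 1 match was found in 0.457% of windows. In Socs3 the match began at position -154, and in Pim3 the Nr4a and Ets matches began at -171 and -167. Capitals mark the matches in these sequences, which are written 5′ to 3′ on the strand of the gene. The Cish stretch (chr9:107296655-107296684, plus strand) spans the start, and the other stretches end at the base before it.
Cish, chr9:107296655-107296684, plus strand: agttTTCCTGGAAagTTCTTGGAAatctgt
Socs3, chr11:117969367-117969616, minus strand: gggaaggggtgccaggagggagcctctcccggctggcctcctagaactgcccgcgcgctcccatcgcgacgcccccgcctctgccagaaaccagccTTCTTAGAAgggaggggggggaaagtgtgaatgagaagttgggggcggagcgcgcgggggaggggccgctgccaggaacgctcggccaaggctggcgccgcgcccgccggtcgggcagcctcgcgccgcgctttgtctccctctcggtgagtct
Pim3, chr15:88861944-88862193, plus strand: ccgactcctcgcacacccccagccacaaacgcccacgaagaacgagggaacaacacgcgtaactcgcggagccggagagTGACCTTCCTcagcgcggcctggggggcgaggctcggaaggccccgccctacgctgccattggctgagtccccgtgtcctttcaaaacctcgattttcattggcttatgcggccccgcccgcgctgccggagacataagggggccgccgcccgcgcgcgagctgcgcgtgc
A match describes letters in a window, and no binding was measured on these arrays.

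Cish was the member with the highest gain in culture. CIS is a feedback inhibitor of STAT5 signalling downstream of IL-2. Its probe (chr9:107204196-107204255 on mm9, the build of all probe positions here) was at 5.26 on WT naive T, 4.88 on Nr4a-TKO naive T, 8.33 on WT iTreg at 3 h and 9.02 on Nr4a-TKO iTreg at 3 h. Both arrays of cultured cells were thus above both arrays of naive cells. The scanner's processed intensities were 34.9, 25.1, 383 and 589 in the same order. The change at 3 h was 3.07 in WT, or 8.38-fold, which was the 68th highest of 23418 genes, and 4.15 in Nr4a-TKO, or 17.7-fold, the 10th highest of 23920. Between genotypes, Cish was -0.38 in naive cells and 0.69 higher at 3 h on the Nr4a-TKO arrays. The change was larger in Nr4a-TKO by 1.08, or more than 2-fold. That difference was 0.77 with an offset of 50 in the background correction and 0.90 with no background correction, both under 2-fold. With the offset of 50 the changes of Cish themselves were 2.07 in WT and 2.85 in Nr4a-TKO.

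Socs3 went the other way. SOCS3 inhibits receptors that signal through gp130, such as that of IL-6, and STAT3. Its probe (chr11:117827480-117827539) was at 8.90 on WT naive T, 8.27 on Nr4a-TKO naive T, 4.67 on WT iTreg at 3 h and 5.33 on Nr4a-TKO iTreg at 3 h, with processed intensities of 365, 231, 16.7 and 31.7. Both arrays of naive cells were above both arrays of cultured cells, and all 4 were well above background. The level was lower at 3 h by 18.8-fold in WT, a log2 difference of -4.23 and the 15th lowest of all genes, and by 7.66-fold in Nr4a-TKO, a difference of -2.94 and the 116th lowest. Nr4a-TKO was at -0.63 against WT in naive cells and at 0.66 at 3 h, so neither array pair was 2-fold apart while the difference between the changes was 1.30. That difference was 0.82 with the offset of 50 and 1.61 when the processed intensity was scaled to the 75th percentile. Cish and Socs3, the 2 members with a STAT match, differed in opposite directions between naive and cultured cells in both genotypes. The part of these matches in the differences was not tested.

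Socs1 encodes an inhibitor that binds JAKs and restrains signalling by interferon-γ and the common γ chain cytokines. Its probe (chr16:10783951-10784010) was at 5.61 on WT naive T, 5.33 on Nr4a-TKO naive T, 6.17 on WT iTreg at 3 h and 5.52 on Nr4a-TKO iTreg at 3 h. The WT array at 3 h stood above the other arrays, whose levels lay within 0.28. The change was 0.56 in WT and 0.19 in Nr4a-TKO, the difference between genotypes was -0.28 in naive cells and -0.65 at 3 h, and none of these reached 2-fold.

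**Figure D1:**
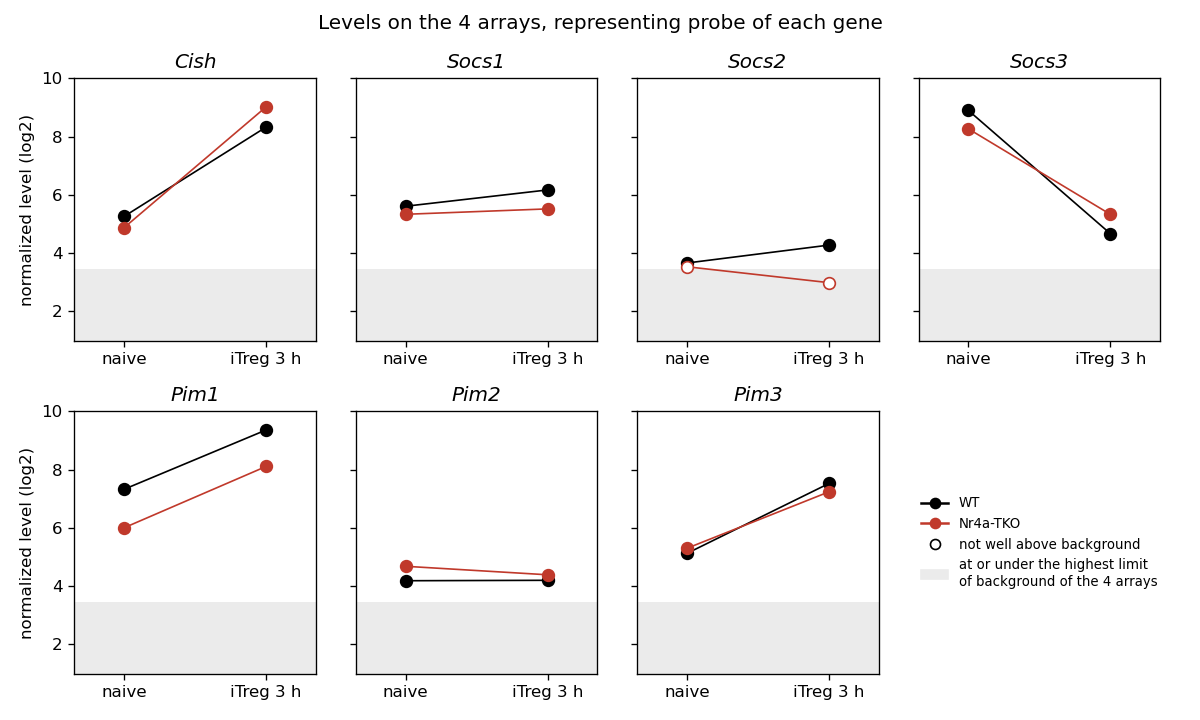
Normalized log2 level (vertical axis) of the representing probe of each gene in naive cells and at 3 h of iTreg culture, for the WT (black) and Nr4a-TKO (red) arrays, 1 array per point and no error bars. Cish, Pim1 and Pim3 were higher at 3 h in both genotypes, Socs3 was lower, Pim1 was lower on both Nr4a-TKO arrays, and Socs2 was not well above background (open points) on the Nr4a-TKO arrays.

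Socs2 was near the limit of detection. SOCS2 is best known for restraining growth hormone signalling and is also a STAT5 target. The probe with the highest mean (chr10:94875066-94875125) was at 3.66 on WT naive T and 4.28 on WT iTreg at 3 h, and was not well above background on either Nr4a-TKO array, where it read 3.53 and 2.99. The WT change was 0.62, and no change could be given for Nr4a-TKO. At 3 h the Nr4a-TKO array was at least 2.31-fold lower than WT, a log2 difference of -1.20, and this bound was -0.25 with the offset of 50 and -0.35 with no background correction. A second probe of the same transcript (chr10:94875468-94875527) was well above background on WT naive T alone, at 4.26, and read 3.26 on Nr4a-TKO naive T, 3.52 on WT iTreg and 2.94 on Nr4a-TKO iTreg. By this probe the WT level was lower at 3 h, by 1.67-fold against a 3 h reading not well above background, so that the probes disagreed on the direction in WT. The other 2 probes (chr10:94850747-94850806 and chr10:94848005-94848064), designed on other transcripts, were not well above background on any array.

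**Figure D2:**
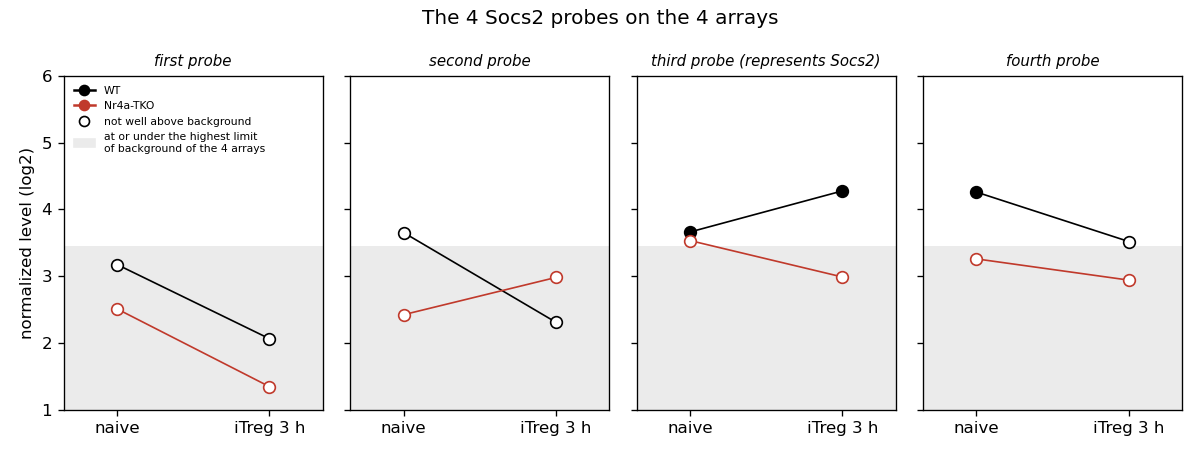
Normalized log2 level (vertical axis) of the 4 Socs2 probes in naive cells and at 3 h, in order of their position on chromosome 10, with filled points well above background. The third and the fourth probe had 3 such points between them, all on WT arrays, and ran in opposite directions in WT.

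Among the 6 members measured on all 4 arrays, Pim1 was the lowest on the Nr4a-TKO arrays relative to WT. PIM1 phosphorylates proteins of cell survival and the cell cycle. Its probe (chr17:29632331-29632390) was at 7.33 on WT naive T, 6.00 on Nr4a-TKO naive T, 9.36 on WT iTreg at 3 h and 8.11 on Nr4a-TKO iTreg at 3 h, with processed intensities of 148, 55.5, 776 and 302. Within each stage the Nr4a-TKO array was the lower, and within each genotype the cultured cells were the higher. Nr4a-TKO was 2.50-fold lower than WT in naive cells, a log2 difference of -1.32 and the 235th lowest of 23309 genes, and 2.38-fold lower at 3 h, a difference of -1.25 and the 316th lowest of 23701. The naive difference was -0.88 with the offset of 50, under 2-fold. The change in culture was 4.10-fold in WT (2.04) and 4.30-fold in Nr4a-TKO (2.11), and these changes differed by 0.07. On the same arrays Foxp3 was lower at both stages, which the other 3 Treg markers were not, and the B cell and MHC class II sum was higher. Of the myeloid genes, Cd14, S100a8 and S100a9 were lower on the naive array, by the values above. Fcer1g, Csf1r, Itgam and Lyz2 were at 0.15, 0.12, 0.08 and -0.02 there. The part of all these markers in the Pim1 difference was not tested.

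Pim3 was higher in cultured cells with little distance between genotypes. PIM3 shares most of its substrates with PIM1. Its probe (chr15:88695626-88695685) was at 5.12 on WT naive T, 5.30 on Nr4a-TKO naive T, 7.52 on WT iTreg at 3 h and 7.24 on Nr4a-TKO iTreg at 3 h. The change was 5.28-fold in WT (2.40, the 203rd highest) and 3.83-fold in Nr4a-TKO (1.94, the 344th highest). Nr4a-TKO differed from WT by 0.17 in naive cells and by -0.29 at 3 h, and the changes differed by -0.46.

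Pim2 did not follow the other kinases of its family. PIM2 is a survival kinase of lymphocytes. Its probe (chrX:7459678-7459737) was dim, at 4.19 on WT naive T, 4.68 on Nr4a-TKO naive T, 4.20 on WT iTreg at 3 h and 4.39 on Nr4a-TKO iTreg at 3 h. The changes were 0.01 in WT and -0.29 in Nr4a-TKO, and the differences between genotypes were 0.50 in naive cells and 0.19 at 3 h, none of them 2-fold.

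In WT, 3 of the 7 genes were more than 2-fold higher at 3 h, where 8.4% of all genes were, and 1 was lower, where 8.54% were. In Nr4a-TKO, 3 of 6 were higher and 1 lower, against 7.77% and 7.95% of all genes. The same 4 genes, Cish, Pim1, Pim3 and Socs3, made up both counts, and each was past 2-fold in both genotypes under the 7 other scalings, summaries and filters tried. The median change of the members was 0.62 in WT and 1.06 in Nr4a-TKO, against -0.05 and -0.02 over all genes. Between genotypes the counts were small. In naive cells 0 of 7 were higher and 1 lower, Pim1, where 1.9% and 1.69% of all genes were. At 3 h 0 of 7 were higher and 2 lower, Pim1 and Socs2 by its bound, where 1.73% and 1.92% were. The medians between genotypes were -0.28 and -0.29, against -0.02 and 0.00 over all genes.

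**Figure D3:**
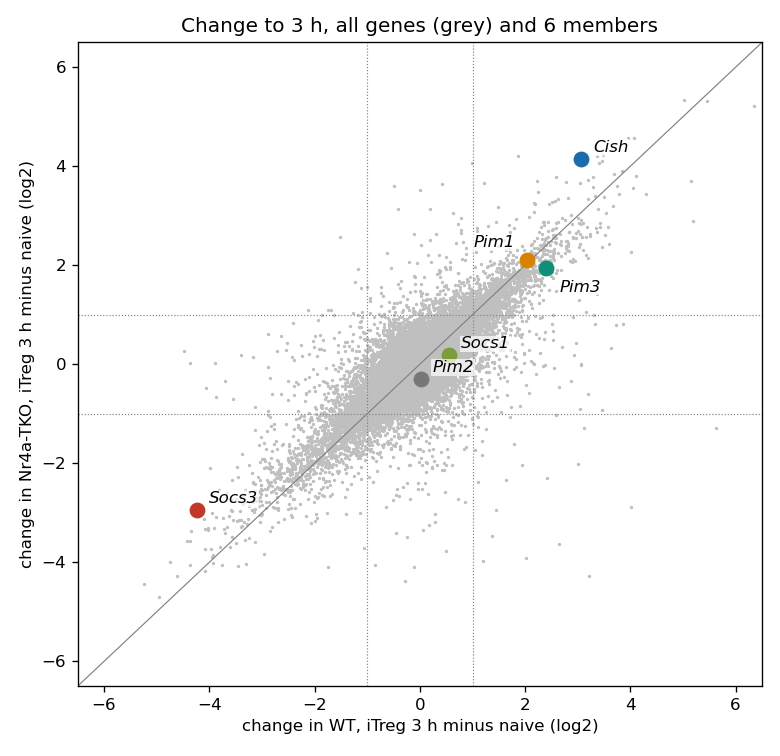
Log2 change in 3 h of culture, with WT on the horizontal axis and Nr4a-TKO on the vertical axis, for 22443 genes with both values (grey) and the 6 members among them (coloured), with dotted lines at 2-fold and a line of equal change. Cish lies above the line at 3.07 and 4.15, Socs3 above it at -4.23 and -2.94, and Pim1 close to it at 2.04 and 2.11.

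**Figure D4:**
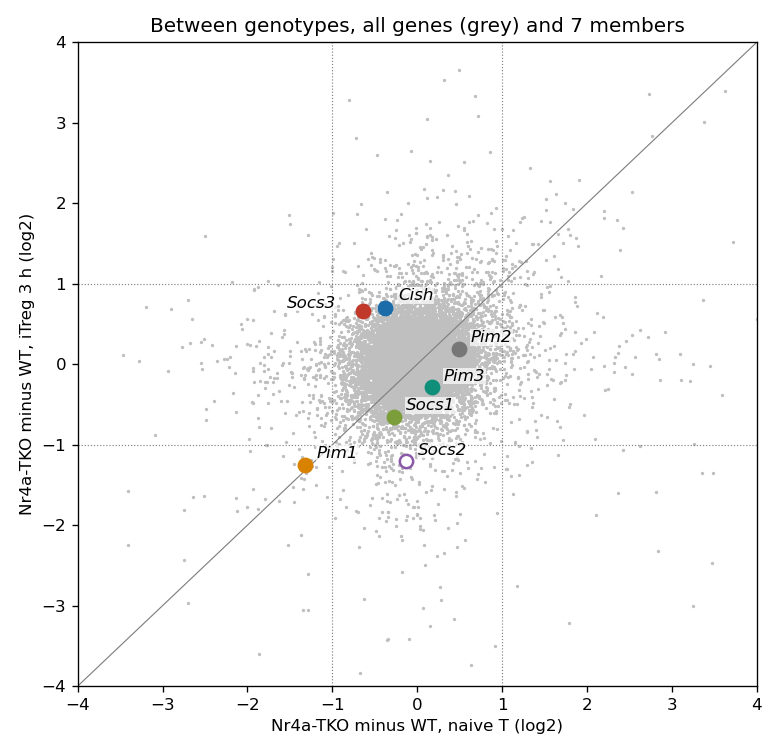
Log2 difference Nr4a-TKO minus WT in naive T (horizontal axis) and in iTreg at 3 h (vertical axis) for 22115 genes (grey, 13 of them outside the axes) and the 7 members, with Socs2 drawn open because its Nr4a-TKO readings were not well above background. Pim1 was past 2-fold at both stages, at -1.32 and -1.25, while Cish and Socs3 were below 0 in naive cells and above 0 at 3 h.

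The rest of the pathway was read from lists, beginning with the inhibitors. The count of each list stands beside the share of all genes past 2-fold. At 3 h against naive cells, 8.4% were higher and 8.54% lower in WT, and 7.77% and 7.95% in Nr4a-TKO. Between genotypes, 1.9% were higher and 1.69% lower in naive cells, and 1.73% and 1.92% at 3 h. Lists this short were not tested against these shares. Of the 9 other SOCS genes and parts of the SOCS-box ligase, 2 were more than 2-fold higher in WT at 3 h, Socs6 by 1.70 and Cul5, the cullin of the ligase, by 1.16. In Nr4a-TKO none of the 9 was higher, and the changes of these genes were 0.99 and 0.71. Rnf7, its RING subunit, was lower in both genotypes, by -1.22 and -1.08. The list's median change was 0.56 in WT and 0.50 in Nr4a-TKO, and none of the 9 was 2-fold apart between genotypes at either stage.

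Of 12 other brakes on cytokine signalling, of which 11 had a value in WT, 2 were higher at 3 h in both genotypes. These were Sh2b3, the adaptor LNK, by 1.94 and 1.46 in WT and Nr4a-TKO, and Bcl6, a transcriptional repressor, by 1.96 and 1.76. Usp18, an inhibitor of interferon receptors, was lower by -1.05 and -1.35, and Pias1, a STAT inhibitor, was at -0.89 in WT and past 2-fold in Nr4a-TKO at -1.03. None of the list was 2-fold apart between genotypes, and its median change was 0.24 in both.

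Among 16 cytokines that signal through JAK and STAT, 8 could be compared between the WT arrays and 9 between the Nr4a-TKO arrays. IL-2, which was also supplied in the medium, had a transcript that was higher at 3 h by 3.36 in WT and by 4.22 in Nr4a-TKO. Its naive reading was not well above background in WT and was in Nr4a-TKO. Lif, a cytokine of the IL-6 family, was at least 2.22 higher in WT and 3.70 higher in Nr4a-TKO, with neither naive reading well above background. Il21 was 1.21 higher in WT, against a naive reading not well above background, with 0.78 in Nr4a-TKO, and Ifng was at least 1.21 higher in Nr4a-TKO. Osm, an IL-2 target that signals through gp130, was lower by -1.45 and -1.05. Between genotypes at 3 h, 5 of 9 cytokines were more than 2-fold higher on the Nr4a-TKO array and 0 lower. These were Il2 by 1.20, Il21 by 1.47, Lif by 1.44, Il3 by at least 1.28 and Ifng by at least 1.15. Il3 and Ifng were not well above background on the WT array at 3 h, and had a value only through the Nr4a-TKO array. The others with a value were Osm at 0.26, Il12a at 0.22, Il13 at 0.10 and Il27 at -0.15. On the Nr4a-TKO array at 3 h the memory or effector genes summed to 4220 against 2297 in WT. Cd44, Cxcr3, Ly6c2, Il2rb and Id2 were higher by 1.56, 1.30, 0.99, 0.77 and 0.45, while Ccl5 was at 0.17 and S100a4 at -0.36. The part of these genes in the cytokine differences was not tested. In naive cells 1 of 7 cytokines was higher, Il21 by 1.90 against a WT reading not well above background. The list's median between genotypes was 1.15 at 3 h and 0.30 in naive cells, against 0.00 and -0.02 over all genes. The 1.15 is the bound of Ifng itself, so this median rests on which cytokines had a value. The list's median change was -0.09 in WT and 0.49 in Nr4a-TKO.

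The receptor chains past 2-fold in culture were all lower. Of 19 with a value, 9 were more than 2-fold lower and 0 higher in WT, and 8 and 0 in Nr4a-TKO, with medians of -0.57 and -0.68 against -0.05 and -0.02 over all genes. Il7r, the IL-7 receptor that naive T cells depend on, was lower by -3.02 and -2.76, Il6ra by -2.45 and -2.16, Ifngr1 by -1.93 and -1.06 and Ifngr2 by -1.62 and -1.18. Ifnar2 was lower by -1.41 and -1.11, Il27ra by -1.31 and -1.29 and Il10ra by -1.61 and -1.84, the last against 3 h readings not well above background. Il10rb was lower by -1.14 and Il12rb1 by a bound of -1.29 in WT, with -0.49 and -0.65 in Nr4a-TKO. The receptor chains of IL-2 did not reach 2-fold, with Il2ra at 0.30 and 0.42, Il2rb at 0.49 and 0.69 and Il2rg at 0.08 and 0.12. Each was read from its brightest probe alone. The probe of Il2ra, which encodes CD25, was at 9.27 on WT naive T and 9.20 on Nr4a-TKO naive T, although the sort took cells with low CD25. Il6st, which encodes gp130, was lower by -1.12 in Nr4a-TKO and was at -0.20 in WT, and at 3 h it was -1.11 between genotypes, the single receptor chain past 2-fold there.

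Of 10 JAK and STAT genes, 1 was more than 2-fold higher and 2 lower in WT at 3 h, and 1 and 1 in Nr4a-TKO, with medians of -0.65 and -0.35. Jak2 was higher at 3 h by 2.10 in WT and 2.24 in Nr4a-TKO. Jak1 was lower by -1.53 and -1.03. Stat4, used by IL-12, was lower by -1.74 in WT and was at -0.74 in Nr4a-TKO. None of the 10 was 2-fold apart between genotypes, and Stat5a, the STAT factor of IL-2 together with Stat5b, was at 0.39 between genotypes at 3 h, with Stat5b at 0.25.

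Other textbook targets of IL-2 and STAT5 share 3 genes, Il2ra, Osm and Lif, with the lists above. Of 16 in WT, 5 were more than 2-fold higher at 3 h and 3 lower, and of 15 in Nr4a-TKO also 5 and 3, with medians of 0.24 and 0.18. Beside Lif, Bcl2l1, which encodes the survival protein BCL-XL, was higher by 3.46 and 4.10, Tnfrsf4, the costimulatory receptor OX40, by 3.04 and 3.66, Tnfrsf9, the costimulatory receptor 4-1BB, by 4.01 and 2.27, and Myc by 2.35 and 1.82. Beside Osm, Il18r1 was lower by -3.19 and -2.20 and Ccnd3, a D-type cyclin, by -1.53 and -1.38. Between genotypes at 3 h, Lif and Bcl2l1 were higher on the Nr4a-TKO array, the second by 1.12, and Tnfrsf9 was lower by -3.60. Tnfrsf9 was also lower in naive cells, by -1.86. At 3 h these were the only genes of the 16 past 2-fold between genotypes, 2 higher and 1 lower, and the list's median was -0.003. Among the members, Cish was at 0.69 there, under 2-fold, and Pim1 at -1.25. Whether these genes share a control was not tested.

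Of the substrates and partners of PIM kinases, 4 of 14 with a value were higher and 4 lower in WT at 3 h, and 3 and 2 of 15 in Nr4a-TKO, with medians of -0.18 and -0.07. Eif4ebp1, a translation repressor, was higher by 3.17 and 2.77 in WT and Nr4a-TKO, and Cdkn1a, the cell cycle inhibitor p21, by at least 2.16 and at least 3.08. Myc has its values above, and Myb was higher by 1.00 in WT, at the threshold, and by 0.64 in Nr4a-TKO. Cdkn1b, the cell cycle inhibitor p27, was lower by -3.14 and -2.41 and Foxo1 by -1.76 and -1.05. Bad, a proapoptotic protein, was lower by -1.26 in WT and was at -0.89 in Nr4a-TKO, and Cbx3 by -1.26 and at -0.95. None of the list was 2-fold apart between genotypes in naive cells or at 3 h, where its medians were -0.08 and 0.04.

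**Figure D5:**
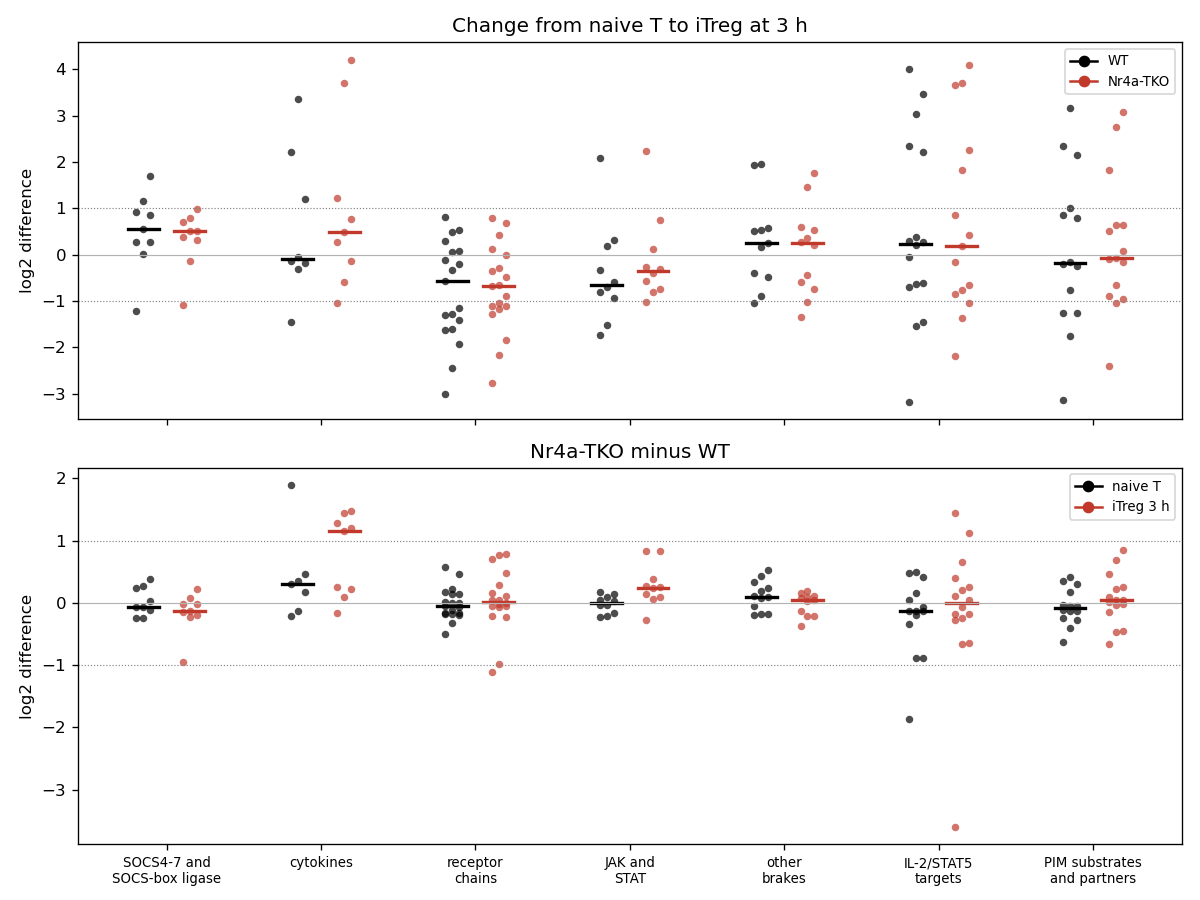
Log2 difference (vertical axis) of each gene of 7 pathway lists (points) and the list's median (bars), for the change in WT and Nr4a-TKO (upper panel) and for Nr4a-TKO minus WT in naive T and at 3 h (lower panel), with dotted lines at 2-fold. The receptor chains had medians of -0.57 and -0.68 in culture. The cytokines had a median of 1.15 between genotypes at 3 h, which is the bound of Ifng.

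Activation and control genes give the scale of the culture. Of 12 activation genes, 8 were more than 2-fold higher at 3 h in each genotype. Of the others, 2 were more than 2-fold lower in WT, Fos by -2.39 and Fosb by -1.20, and 1 in Nr4a-TKO, Fos by -2.73. Between genotypes 1 was higher at each stage, Irf4 by 1.25 in naive cells and Il2 at 3 h. The activation list's median between genotypes was 0.33 in naive cells and 0.31 at 3 h, against -0.02 and 0.00 over all genes. Of 8 control genes, 0 were 2-fold apart in any comparison, with a median change of 0.29 in WT and 0.20 in Nr4a-TKO.

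The genes whose pattern over the 4 arrays was closest to that of a member were taken by the Euclidean distance between log2 levels, each centred on its own mean, among the 15646 genes that carry a current RefSeq symbol and passed the background on every array. With 4 arrays this is a description of likeness. Closest to Cish was Crem, a cAMP-response regulator, at a distance of 0.084, with levels of 5.15, 4.83, 8.21 and 8.86 in the order WT naive, Nr4a-TKO naive, WT at 3 h and Nr4a-TKO at 3 h. It was followed by Cd69, the early activation marker, at 0.309 and Dusp4 at 0.377. In all, 7 genes lay within 0.5 of Cish. Socs3 had 6 genes within 0.5, led by Rasgrp2 at 0.294, Pglyrp2 at 0.308 and Txnip at 0.324. Txnip, an inhibitor of glucose uptake, was at 9.70, 9.47, 5.62 and 6.14 in that order. Pim1 had 1 gene within 0.5, Nomo1 at 0.437, and then Bcl2l11, which encodes the proapoptotic protein BIM, at 0.646 and Mia at 0.691. Pim3 had 205 genes within 0.5, led by Slc1a5, a glutamine transporter, at 0.071, Chst2 at 0.073 and Gm5039 at 0.08. Socs1, with 1743 genes within 0.5, and Pim2, with 5085, had flat patterns that many genes share, and the closest were Amz1, Arap2 and Olfr218 for the first and Ddhd2, Rpgr and Trappc13 for the other. Socs2 was left out because 2 of its arrays held no measured level. Among the 6 measured members, the closest pair was Socs1 and Pim2 at 0.955, and next came Pim1 and Pim3 at 1.26, while Cish and Socs3 were farthest apart at 7.19.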

How the data were processed

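The 4 groups of CD4+ T cells were measured with 1 Agilent array each, and groups were taken from the titles in the labels. The authors deposited, per array, the mean intensity and local background intensity of every spot, a processed intensity and flags, made with Agilent Feature Extraction 11.5.1.1, and a set of values on the log2 scale. The probe coordinates are on mm9. The deposited log2 values equalled the logarithm of the processed intensity less a constant for each array (6.35 to 6.58, SD 0.0029 over 56305 probes), with medians between -2.35 and -2.17, although the methods name RMA.

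In R 4.3.3, limma 3.58.1 was run on the spot intensities, read by version 1.17.8 of data.table, for normexp correction with an offset of 0, quantile normalization over the 4 arrays, log2 and the mean over spots. Control and outlier spots were left out. Counts and figures came from Python 3.11.15 with numpy 2.4.6, matplotlib 3.10.9 and pandas 2.3.3. A current symbol stood on 41700 of 56605 probes, 1518 were named by transcript and 520 by synonym in RefSeq's table (GRCm38.p6, for names and promoter sequence), and the others kept the name in the files. The 4450 probes named by a chromosome interval alone entered no count of genes. Each gene is represented by its brightest probe on average. A difference needed at least 1 of its 2 arrays well above background, and between 64.9% and 67.6% of probes per array were. The threshold was 2-fold, and the number of arrays limits the precision. Counting past the threshold was tested on simulated data, which checks the counting alone and leaves out the spread between mice, sorts and cultures.

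The 7 genes and all lists were chosen with earlier results of these data known. Genes were named where they are members, where a pathway list gene passed 2-fold in a comparison, where they are targeted or marker genes, or where they are among the 3 closest patterns of a member. Some items of the lists are not reported here. Some list genes under 2-fold are named beside these, and these were chosen after their values were seen. Alternatives were scaling to the 75th percentile, the deposited values, an offset of 50, uncorrected intensities, the mean over a gene's probes, a stricter filter and no filter on dim probes, and thresholds of 1.5-fold and 3-fold.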

Additional observations from a re-analysis of the deposited data

Results flagged for a closer look

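Pim2 was singled out because its change in 3 h of culture had opposite signs on the arrays of the 2 genotypes, 0.01 in WT and -0.29 in Nr4a-TKO, which differ by -0.31 on the log2 scale. With 1 array per group the difference was not tested. The WT change was -0.30 with scaling to the 75th percentile and -0.29 in the deposited values, where the signs were the same.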

How the results depend on the processing

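No paired analysis was possible because each group had 1 array. For the same reason no array could be left out. The counts of members more than 2-fold apart at 3 h against naive cells were 4 in both genotypes under the other scalings and filters, at 3-fold, and at 1.5-fold in Nr4a-TKO, where WT had 5. In naive cells, the count between genotypes of 1 was 0 with a normexp offset of 50, 2 at a threshold of 1.5-fold and 0 at 3-fold. At 3 h, the count of 2 was 1 with the offset of 50, 1 with no background correction, 1 where the probe had to be well above background on all arrays, 5 at 1.5-fold and 0 at 3-fold. No member past 2-fold changed direction. Socs2, under 2-fold in WT, went from 0.62 to -0.06 with the mean of its probes. The offset of 50 moved 20 of 33 single differences by more than the spread between repeated spots, no background correction 12, the deposited values 11, scaling to the 75th percentile 8 and the mean of the probes 2. This offset lowers all folds of dim probes by its construction. Over all genes, the numbers higher and lower in WT at 3 h were 1966 and 1999, and 963 and 937 with the offset. Between genotypes at 3 h they were 411 and 456, and 75 and 103 with the offset. In naive cells they were 444 and 393, and 103 and 89. Signal over background limits Socs2 and Pim2 most.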
